A study of Xenopus tropicalis with 39 samples.

Results

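The regions described here were stretches of Xenopus tropicalis chromatin where the transcription factor Vegt was bound at stage 8 and neither Otx1 nor Foxh1 was called. They were found by joining all peaks of the 3 factor lists that overlapped by at least 1 bp and taking the regions that held Vegt peaks only. The 3 lists gave 55220 regions, of which 14869 (26.9%) were bound by Vegt alone, and these made up 68.6% of the 21687 regions with a Vegt peak. The regions were thus chosen by the presence of a Vegt peak and the absence of an Otx1 and a Foxh1 peak, and neither is a finding. Each of the 14869 regions was a single Vegt peak (0 held more than 1), so every member has 1 strength value, 1 summit and 1 width.

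The Vegt and Otx1 lists came from whole, unmanipulated embryos at stage 8, before most zygotic genes are switched on. Each had 2 chromatin immunoprecipitation (ChIP) samples. The Vegt, Otx1 and H3K4me1 samples were all fixed in 1% formaldehyde for 50 minutes. The H3K4me1 list came from vegetal masses dissected at stage 10.5 from 100 fixed embryos, again with 2 samples; its peak names carry the letters meso, while the labels say vegetal mass. The Foxh1 peaks, at stage 8 per their names, derive from libraries published earlier under another series, and the design text says that 1 of these libraries also went into making the lists of Vegt and Otx1. Vegt and H3K4me1 were therefore measured in different material and at different stages, and vegetal cells were only part of the whole embryos used for Vegt.

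Vegt is a T-box factor whose RNA is laid down by the mother in the vegetal cytoplasm of the frog egg, and it is known as a maternal determinant of endoderm that also starts mesoderm induction through Nodal ligands. Otx1 is a homeodomain factor, and Foxh1 is a forkhead factor that carries Smad proteins to Nodal target genes. H3K4me1, the single methylation of lysine 4 of histone H3, marks enhancers, both primed and active. Regions bound by Vegt, Otx1 and Foxh1 together are called triple-bound below.

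Each list pools its samples, so there is no spread between replicates and no p-value is given. Shares are printed with their Wilson 95% interval and medians with an order-statistic 95% interval. Both cover counting error over regions only, and regions of the same libraries are not replicates. A region without an Otx1 or Foxh1 peak is one without a call in that list, and the lists were not equally deep. The Vegt list held 21711 peaks down to a −log10 q of 12.04, the Otx1 list 5151 peaks down to 4.91, and the Foxh1 list 39218 peaks down to 25.3. These lowest values need not be the cutoffs. The Vegt, Otx1 and Foxh1 lists are labelled IDR optimal, and the H3K4me1 list is not. IDR, the irreproducible discovery rate, scores how well peaks repeat between replicates. Peak names are numbered up to 45441 for Vegt, 9074 for Otx1 and 131359 for Foxh1, above the numbers of peaks held. Binding that was too weak or repeated too poorly to be listed cannot be told apart from none.

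Vegt alone covered a wide range of strengths. Strength is the authors' fold enrichment per peak (column 7 of the list), used here only to rank and describe peaks of the Vegt list. Among the 14869 regions it ran from 2.47-fold to 31.0-fold, with a median of 8.78-fold (8.74 to 8.92) and quartiles of 6.98-fold and 12.1-fold. The triple-bound regions had almost the same median Vegt strength, 8.77-fold (8.56 to 8.96; 2315 regions). Their median Vegt −log10 q was higher, however, at 29.8 against 24.7 for Vegt-only regions. Regions with Vegt and Foxh1 were weaker, at a median of 7.38-fold (7.28 to 7.46; 3537 regions). Regions with Vegt and Otx1 but no Foxh1 stood far above, at 18.8-fold (18.1 to 19.3; 966 regions). The Vegt-only and triple-bound regions had nearly equal median fold enrichment but not the same spread. The 10th percentile was 6.20-fold against 5.76-fold, the 90th 16.0-fold against 17.1-fold and the 99th 22.7-fold against 27.7-fold.

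**Figure D1:**
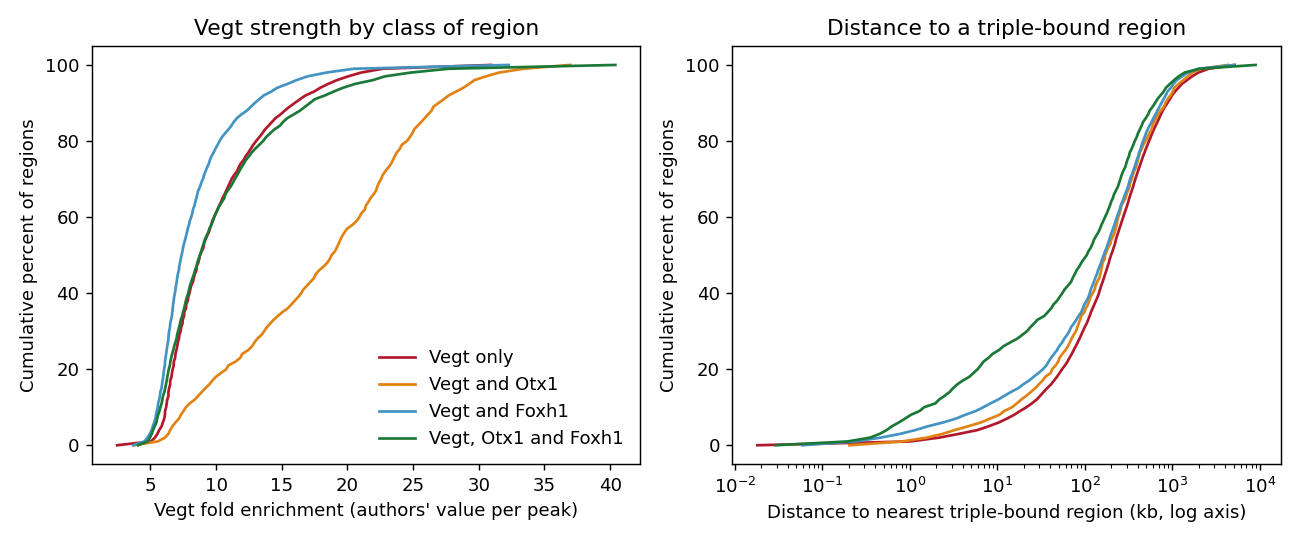
Left, cumulative percent of regions against the Vegt fold enrichment of their strongest Vegt peak; right, against the distance in kb (log axis) to the nearest triple-bound region, for the 4 classes of region that hold a Vegt peak. The Vegt-only and triple-bound curves for strength cross near their medians (8.78-fold and 8.77-fold) and part towards both ends, and the Vegt-only curve is the farthest to the right for distance (median 198588 bp).

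Stronger Vegt-only peaks were also wider and more certain. Over the 14869 regions the rank correlation (Spearman's rho) of fold enrichment was 0.47 with width and 0.96 with −log10 q, quantities that come from the same reads of the same pooled libraries. The regions were divided into 10 equal groups by fold enrichment, called deciles, from 1 (weakest) to 10 (strongest). The median width was 280 bp in decile 1 (2.47-fold to 6.20-fold) and 409 bp in decile 10 (16.0-fold to 31.0-fold). The median width of all Vegt-only regions was 332 bp, against 581 bp for the triple-bound regions, which join peaks of 3 lists.

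The 10 strongest regions, which the choice by strength put at the top, lay on 4 chromosomes and ranged from 27.9-fold to 31.0-fold. The genome build of the coordinates is not given in the sources used here, and no gene annotation of that build was used, so positions are given without neighbouring genes. The strongest lay on chromosome 3 at 82080553 to 82080988, with 31.0-fold enrichment and a −log10 q of 150. Next came chromosome 3 at 126963584 to 126964136, with 30.7-fold, and chromosome 6 at 52930827 to 52931233, with 30.4-fold. These leading regions were between 407 and 553 bp wide, above the 332 bp median of all Vegt-only regions.

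None of the 10 (0 of 10) overlapped an H3K4me1 peak, a count too small to set apart from the 3.40% of all Vegt-only regions. Their distance to the nearest H3K4me1 peak had a median of 49222 bp and went from 3786 bp, for the region on chromosome 1 at 71434648 to 71435422, to 102467 bp, for the one on chromosome 3 at 23135594 to 23136046. The nearest triple-bound region was between 151079 and 1321970 bp away, with a median of 285112 bp. A Foxh1 peak could be much closer: the region on chromosome 5 at 63154281 to 63154747 had one at 817 bp. Over all Vegt-only regions the median distance was 59143 bp to H3K4me1 and 198588 bp to a triple-bound region.

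H3K4me1, which the choice of regions did not use, was rare at Vegt-only regions. Of the 14869 regions 506 overlapped an H3K4me1 peak by at least 1 bp, 3.40% (3.12 to 3.71), against 8.51% of all 55220 merged regions. The share was 9.32% (7.64 to 11.3) in regions with Vegt and Otx1, 15.2% (14.0 to 16.4) in regions with Vegt and Foxh1 and 33.5% (31.6 to 35.5) in triple-bound regions. Foxh1-only regions were at 7.59% (7.31 to 7.89), Otx1-only regions at 19.5% (14.7 to 25.5) and regions with Otx1 and Foxh1 at 21.1% (19.2 to 23.1). The Vegt-only share was the lowest of the 7 classes, and its interval overlapped no other. The classes differ in width, and a wider region meets a peak more easily. Counted by bases, 2.10% of the sequence in Vegt-only regions lay in H3K4me1 peaks, against 6.01% in Foxh1-only and 23.1% in triple-bound regions. The H3K4me1 peaks together covered 10.7 Mb, or 0.782% of the 1371 Mb of sequence up to the last peak on each chromosome or scaffold.

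The H3K4me1 share fell with Vegt strength when strength was ranked by fold enrichment. In decile 1 by fold enrichment 95 of 1487 regions overlapped H3K4me1, 6.39% (5.25 to 7.75). In decile 10 there were 27 of 1486, 1.82% (1.25 to 2.63), a difference of -4.57 percentage points. In between, deciles 2 to 5 lay between 3.50% and 4.24% and deciles 6 to 9 between 2.35% and 3.23%. The fall from one decile to the next was not even, since deciles 3 and 4 were above decile 2 and decile 8 was above decile 7, with intervals that overlapped.

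The excess at the weak end sat in the lowest fold values. Within decile 1, the 298 regions from 2.47-fold to 5.35-fold carried H3K4me1 in 11.7%, while the 297 regions from 6.11-fold to 6.20-fold did so in 3.03%. Both groups had a similar median −log10 q, 13.7 and 12.8, so the first were as certain as the second but had less enrichment over the control. Ranked by −log10 q, the shares were flatter: 3.36% in the lowest decile, 4.64% in deciles 3 and 4, and 2.42% in the highest. The difference between the highest and the lowest decile was then -0.940 percentage points, with an interval from -2.18 to 0.276. With the strongest 50% of each factor list the difference by fold enrichment was -1.75 points, and with each list at 5151 peaks -0.779 points, both with intervals that included 0. Both cuts removed the Vegt peaks of lowest fold enrichment, so they cannot test the excess in decile 1. In the full lists the high share in decile 1 was thus seen by fold enrichment but not by −log10 q. Deciles 3 and 4 had the highest shares by −log10 q, so no conclusion is drawn from their gap to the highest decile.

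By fold enrichment, stronger regions were wider and yet had the lower share. Counting a region as marked only where the Vegt summit itself lay in an H3K4me1 peak gave 3.97% in decile 1 and 0.673% in decile 10. Counting any H3K4me1 peak within 1 kb gave 10.2% and 3.57%. The distance to the nearest H3K4me1 peak, by contrast, hardly followed strength, with a median of 51102 bp in decile 1, 57997 bp in decile 10 and 59143 bp over all Vegt-only regions (Spearman's rho 0.024 over 14500 regions with an H3K4me1 peak on the same sequence).

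On the 10 assembled chromosomes, which held 13946 of the regions, the strongest 20% had a lower H3K4me1 share than the rest on 8. On chromosomes 2 and 3 there was no gap, with 3.15% against 3.16% and 3.62% against 3.61%. The widest gap was on chromosome 7, at 1.06% against 4.86%. The share over all strengths ran from 1.73% on chromosome 9, where 13 of 750 regions were marked, to 4.10% on chromosome 7, where 58 of 1415 were.

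Vegt-bound regions that also held Foxh1 were compared with Vegt-only regions in the same bins of Vegt strength. The difference in slope between classes was not tested. The bounds of the Vegt-only deciles were used to sort all 21687 Vegt-bound regions by strength. Triple-bound regions carried H3K4me1 in 34.7% (30.0 to 39.6) of 375 regions in the lowest bin and in 36.2% (31.0 to 41.8) of 298 in the highest. Regions with Vegt and Foxh1 were at 16.0% (13.7 to 18.6) of 851 and 12.2% (7.89 to 18.5) of 147. In both classes the intervals of the lowest and the highest bin overlapped, and in each of the 10 bins the Vegt-only interval lay below theirs.

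Regions with Vegt and Otx1 without Foxh1 had a lower share at the top than at the bottom, as Vegt-only regions did. In the highest bin 17 of their 597 regions carried H3K4me1, 2.85% (1.79 to 4.51), close to the 1.85% (1.27 to 2.68) of the 1459 Vegt-only regions there, and the intervals overlapped. In the lowest bin 10 of 22 did, 45.5% (26.9 to 65.3). In each lower bin the interval of regions with Vegt and Otx1 lay above that of Vegt-only regions. In bin 9 the shares were 10.9% (6.19 to 18.5) and 2.32% (1.67 to 3.21). Little H3K4me1 whether or not an Otx1 peak was called was thus seen in the highest bin only, among Vegt sites without Foxh1. The highest bin has no upper bound, so these classes were not matched in strength within it. Over all strengths, the 75th percentile of regions with Vegt and Otx1 was 23.5-fold, while the 99th of Vegt-only regions was 22.7-fold.

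**Figure D2:**
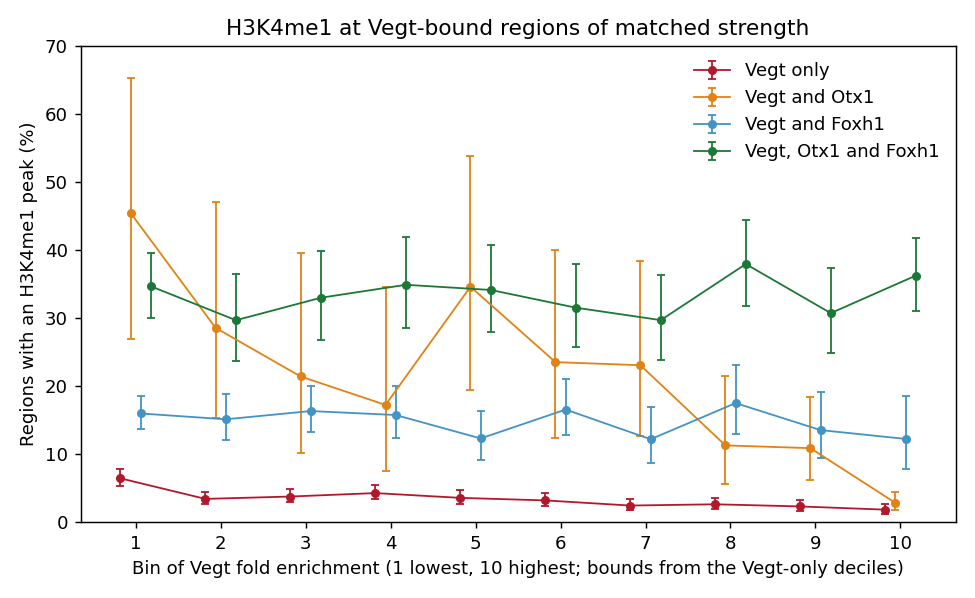
Percent of regions that overlap an H3K4me1 peak against bins of Vegt fold enrichment, with the bounds of the Vegt-only deciles; points are shares and bars are Wilson 95% intervals for the 4 classes that hold a Vegt peak. Vegt-only regions stay lowest in every bin and end at 1.85%, triple-bound regions end at 36.2%, and regions with Vegt and Otx1 drop to 2.85% in the highest bin.

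The make-up of Vegt-bound chromatin changed with fold enrichment as well; it was not worked out for a ranking by −log10 q. Vegt-only regions were 54.4% of the 2736 Vegt-bound regions in the lowest bin, between 69.8% and 75.2% in bins 2 to 9 and 58.3% of the 2501 in the highest. Regions with Foxh1, alone or with Otx1, were 44.8% in the lowest bin, 28.9% in bin 2 and 17.8% in the highest. Regions with Otx1 were 14.5% in the lowest bin, between 9.79% and 15.3% in bins 2 to 9 and 35.8% in the highest. The lower Vegt-only share in the highest bin went with 597 regions of Vegt and Otx1, 23.9% of that bin against 5.04% of the bin before it.

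**Figure D3:**
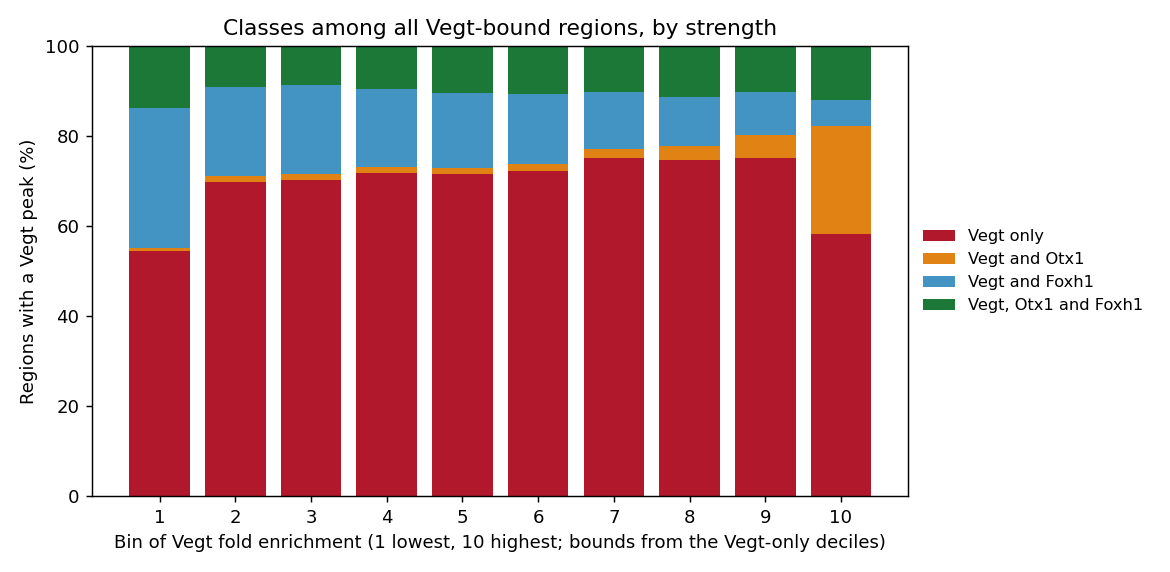
Stacked percent of all Vegt-bound regions in each bin of Vegt fold enrichment that hold Vegt only, Vegt with Otx1, Vegt with Foxh1 or all 3 factors. Vegt-only regions fill 54.4% of the lowest bin and 75.2% of bin 9, and regions with Vegt and Otx1 reach 23.9% in the highest bin.

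H3K4me1 was also counted in the surroundings of the summits. At a Vegt-only summit 1.75% of positions lay in an H3K4me1 peak, rising to 2.38% at 300 bp to either side and going down to 1.44% at 1000 bp, 0.955% at 10000 bp and 0.738% at 100000 bp. Triple-bound summits started at 16.4%, peaked at 25.0% at 300 bp and were still at 2.83% at 10000 bp. Both classes had less H3K4me1 at the summit than at 300 bp, with a much lower crest for Vegt alone. Summits with Vegt and Otx1 were at 7.25%, above Vegt alone. Farther out the order of these classes went both ways. Vegt and Otx1 had 0.805% against 0.955% for Vegt alone at 10000 bp, and 1.24% against 0.858% at 20000 bp.

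For decile 10 of the Vegt-only regions the crest was low. The share was 0.673% at the summit, 1.25% at 300 bp, 0.845% at 1000 bp and 0.778% at 10000 bp, beside 0.782% of all sequence. Values farther out also varied, with 1.12% at 5000 bp and 1.09% at 50000 bp. No interval was made for these shares, so no difference between the summit and all sequence is drawn. Decile 1 had 3.97% at the summit, 4.54% at 300 bp and 1.37% at 10000 bp. Among Vegt-only regions ranked by fold enrichment, H3K4me1 near the summit was thus more frequent in decile 1 than in decile 10. The profile was not made for regions ranked by −log10 q.

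**Figure D4:**
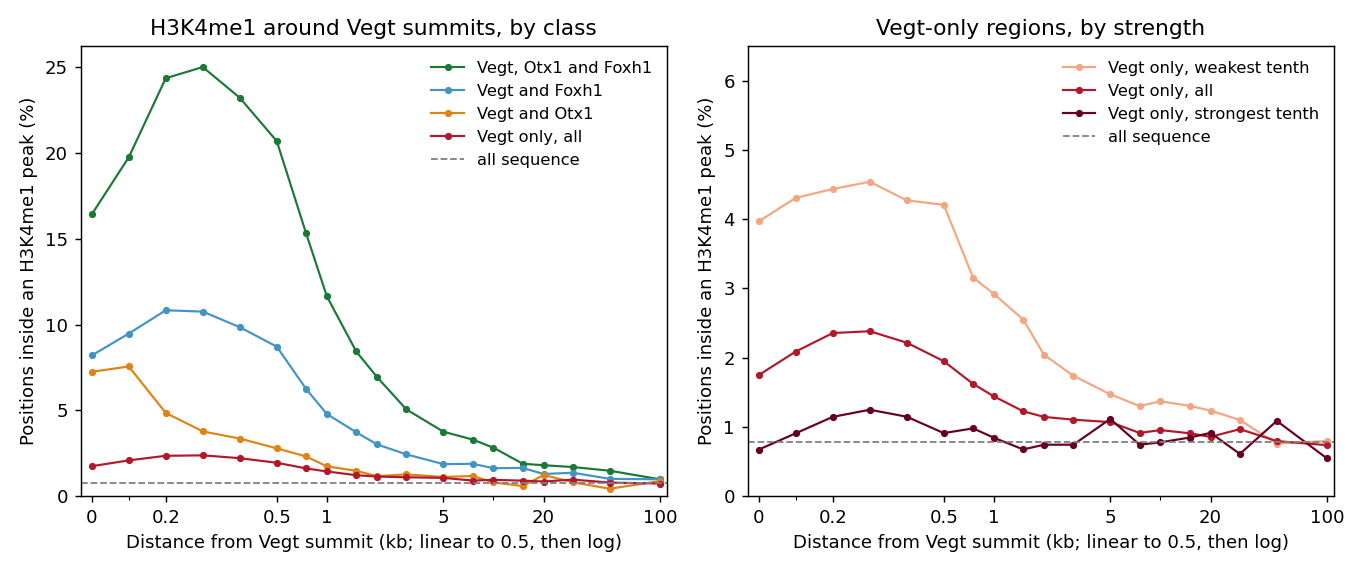
Percent of positions that lie in an H3K4me1 peak against the distance from the Vegt summit, both sides together, by class of region (left) and for the weakest 10%, all and the strongest 10% of Vegt-only regions (right); the dashed line is the 0.782% of all sequence. Triple-bound regions crest at 25.0%, all Vegt-only regions at 2.38% and the strongest 10% at 1.25%, all at 300 bp.

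The 506 marked Vegt-only regions touched 498 H3K4me1 peaks, 3.13% of the 15925 in the list. Those H3K4me1 peaks had a median fold enrichment of 3.28 (quartiles 2.89 and 3.79), against 3.28 at triple-bound regions and 3.09 over the whole H3K4me1 list. The Vegt summit lay inside the H3K4me1 peak in 259 of the 506 regions, 51.2%, and in 47.6% of the 776 marked triple-bound regions. The H3K4me1 peaks at regions with Vegt and Otx1 were stronger, with a median of 4.25 (quartiles 3.29 and 5.21; 88 peaks), and the Vegt summit lay inside them in 76.7% of 90 regions. At regions with Vegt and Foxh1 the median was 3.25 (quartiles 2.89 and 3.68), and the Vegt summit lay inside in 53.2% of 536 regions. In the strength of the mark, the marked Vegt-only regions were thus close to both Vegt-bound classes with Foxh1. They were not close to those with Vegt and Otx1.

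The marked Vegt-only regions were weaker in Vegt than the unmarked ones, with a median of 7.85-fold against 8.85-fold. They were also closer to triple-bound regions, with a median of 118592 bp against 201448 bp. Neither trait was particular to Vegt alone. Marked regions with Vegt and Otx1 were weaker too (9.83-fold against 19.5-fold), but their median distance was not shorter (176438 against 169302 bp). By the 25 kb flank window used below they were closer, with a triple-bound region in it for 14.4% of marked and 8.11% of unmarked regions. Marked regions with Vegt and Foxh1 (120336 against 170866 bp) and marked triple-bound regions (72512 against 120102 bp) were closer, at nearly equal strength. Strong and marked Vegt-only regions did exist. The strongest marked region lay on chromosome 7 at 36775889 to 36776319, with 25.9-fold enrichment, and a Foxh1 peak stood 447 bp from it. It was followed by chromosome 8 at 84892587 to 84892979, with 23.5-fold, and chromosome 1 at 92989375 to 92989782, with 21.6-fold. These 3 were picked after their values had been seen. All of them had another Vegt-only region within 1242 bp.

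Vegt-only regions lay farther from triple-bound ones than most other classes did. Of the 14869, 14292 had a triple-bound region on the same chromosome or scaffold, and the median distance to the nearest was 198588 bp (192949 to 204928), with quartiles of 74213 and 445707 bp. From Foxh1-only regions the median was 181864 bp (177976 to 185344), from regions with Vegt and Foxh1 163899 bp (154479 to 174003), and from one triple-bound region to the next 104726 bp (90814 to 116831). Regions with Vegt and Otx1 were at 169953 bp, with an interval from 155234 to 197297 bp that overlapped that of the Vegt-only regions. Otx1-only regions had a longer median, 291780 bp (210776 to 393410). Closeness was scored with a flank window of 25 kb in all, shared equally by both sides of a region. A triple-bound region reached into the window of 985 Vegt-only regions, 6.62%, against 9.51% of Foxh1-only regions, 8.70% of regions with Vegt and Otx1, 13.1% of regions with Vegt and Foxh1 and 25.7% of the triple-bound regions themselves. For Otx1-only regions it was 4.39%, or 9 of 205.

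Over the whole range strength had next to no rank relation to this distance, but close proximity was more frequent among weaker regions. The median was 178976 bp in decile 1 and 199994 bp in decile 10, and Spearman's rho over 14292 regions was 0.0068. The share with a triple-bound region in the window was 8.47% in decile 1 and 5.72% in decile 10. An Otx1 peak within 1 kb was present at 2.15% of decile 1 and 1.28% of decile 10, and a Foxh1 peak at 9.15% and 6.46%.

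H3K4me1 did follow proximity. Of the 516 Vegt-only regions within 5000 bp of a triple-bound region, 60 were marked, 11.6% (9.14 to 14.7). The share was 7.01% (4.72 to 10.3) from 5000 to 10000 bp, 4.58% (3.48 to 6.01) from 25000 to 50000 bp and 2.53% (2.19 to 2.92) beyond 200000 bp. Even next to a triple-bound region the share was well under the 33.5% of the triple-bound regions themselves. The lower share of strong regions was seen at some distances and not at others. Within 5000 bp, 5 of 80 regions in the strongest 20% (6.25%) and 55 of 436 of the rest (12.6%) were marked, and beyond 200000 bp the shares were 1.69% and 2.74%. From 5000 to 10000 bp and from 25000 to 50000 bp the strongest 20% were not lower, with 7.46% against 6.90% and 4.61% against 4.58%.

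Distance to a Foxh1 peak of any class gave a like gradient. The 503 Vegt-only regions with a Foxh1 peak within 500 bp were marked in 12.7% (10.1 to 15.9). Of the 546 whose nearest Foxh1 peak on the same chromosome or scaffold lay beyond 100000 bp, 1.65% (0.870 to 3.10) were marked. Regions without a Foxh1 peak on their sequence were not counted. For Otx1 peaks the 89 regions within 500 bp were marked in 20.2% (13.2 to 29.7) and the 6946 beyond 100000 bp in 2.27% (1.95 to 2.65). The nearest peaks of both factors are partly the same sites, and H3K4me1 peaks can be wider than the gap between them, so these are not separate results.

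**Figure D5:**
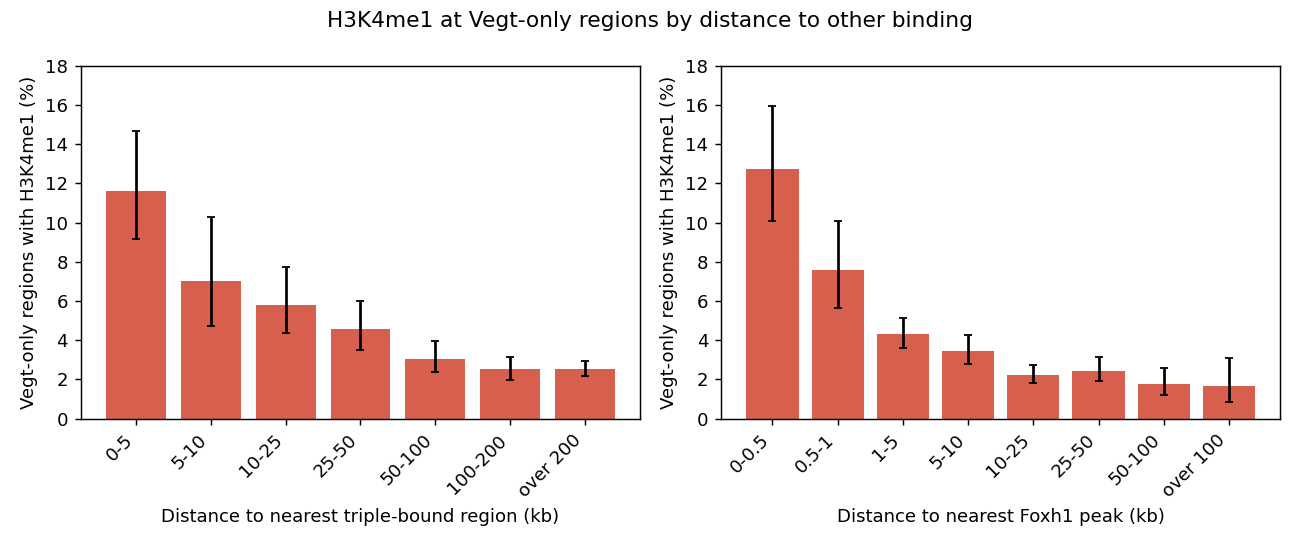
Percent of Vegt-only regions that overlap an H3K4me1 peak, by the distance in kb to the nearest triple-bound region (left) and to the nearest Foxh1 peak (right); bars are shares and error bars Wilson 95% intervals. The share drops from 11.6% to 2.53% with distance to triple-bound regions and from 12.7% to 1.65% with distance to Foxh1 peaks.

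The edge of the rule was sparsely filled, and its values are given as a description. The Vegt-only region closest to another factor lay on chromosome 8 at 79721794 to 79722098, with 13.3-fold enrichment and a Foxh1 peak 2 bp away. Next were chromosome 8 at 90167371 to 90167677, at 6.87-fold and 3 bp, and chromosome 7 at 98181469 to 98181774, at 7.18-fold and 9 bp. Just outside the rule, the Vegt peak on chromosome 2 at 64646665 to 64647032, at 13.3-fold, overlapped a Foxh1 peak by 14 bp, and those on chromosome 1 at 44289204 to 44289537 (20.4-fold) and chromosome 7 at 49602057 to 49602532 (14.4-fold) did so by 17 bp each. Few members sat this close, since 53 Vegt-only regions had an Otx1 or Foxh1 peak within 100 bp and 16 Vegt peaks overlapped one by 100 bp or less. Of the 53, 8 carried H3K4me1, 15.1%, against 3.40% of all Vegt-only regions and 8.51% of all merged regions. The 16 are not Vegt-only regions, and 3 of them carried it. Among all 6842 Vegt peaks that overlapped an Otx1 or Foxh1 peak, 1351 did, 19.7%, so the 16 do not stand apart.

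How many Vegt-only regions stood alone depended on the window. Another Vegt-only region reached into the 25 kb flank window of 34.7% of them, against 20.3% with a window of 10 kb and 50.8% with one of 50 kb, and the median distance to the nearest one was 23509 bp. At 25 kb, joining regions that shared a window in this way left 9703 regions alone, put 3452 into 1726 pairs and 1714 into 512 runs of 3 or more. Foxh1-only regions, of which there were 31682, had one of their own in the window in 59.1%, and triple-bound regions, of which there were 2315, in 25.7%. The classes differ in number, so these shares are not on equal terms. Counting neighbours of any class, 65.9% of Vegt-only regions had a bound region in the window, against 88.0% of triple-bound and 72.9% of Foxh1-only regions.

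Around Vegt-only summits other Vegt peaks were nevertheless denser close by than far away. Other Vegt summits stood at 48.4 per Mb of flank from 1000 to 2000 bp and at 19.5 per Mb from 20000 to 50000 bp. Around triple-bound summits the same densities were 93.7 and 22.0 per Mb. Foxh1 summits were nearly even around Vegt-only summits, with 40.4 per Mb from 1000 to 2000 bp and 31.3 per Mb from 20000 to 50000 bp, while around triple-bound summits they went from 180 to 42.0 per Mb. Otx1 summits around Vegt-only summits were fewer, but they too were denser close by, with 8.54 per Mb from 1000 to 2000 bp and 4.54 per Mb from 20000 to 50000 bp. The local excess over distance was thus seen for Vegt and Otx1 peaks and was slight for Foxh1. Vegt-only regions were chosen for the absence of Otx1 and Foxh1 peaks, and triple-bound regions for their presence. The nearby densities of Otx1 and Foxh1 therefore depend partly on that choice, and no conclusion is drawn from the contrast between the classes.

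Runs and single regions had a similar median strength. The median fold enrichment was 8.78 for regions alone and 8.93 in runs of 3 or more, and H3K4me1 was present at 3.28% (2.94 to 3.65) and 4.08% (3.25 to 5.13). The longer runs were not even in this: 31 of 1149 regions in runs of 3 were marked (2.70%), 33 of 384 in runs of 4 (8.59%) and 5 of 120 in runs of 5 (4.17%). Members of a run share their surroundings, so these counts hold fewer independent cases than regions. The strengths of neighbours were almost uncorrelated: over 2928 pairs of neighbours in a run Spearman's rho was -0.026. The share with a neighbour was 35.4% in decile 1 and 36.6% in decile 10.

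The longest run held 10 Vegt-only regions over 17131 bp of chromosome 2, from 12974502 to 12991632, with gaps between 141 and 5720 bp. Its members ranged from 6.14-fold to 15.2-fold, none (0 of 10) carried H3K4me1 where the share over all Vegt-only regions was 3.40%, and the nearest triple-bound region was 1513567 bp away. Next came 3 runs of 7. The run on chromosome 4, from 52292067 to 52322097, ranged from 4.79-fold to 14.1-fold, and that on chromosome 9, from 42921458 to 42951213, from 6.97-fold to 16.3-fold; both had 0 marked members. The run of 7 on scaffold 94, from 144747 to 160551, had a triple-bound region 546 bp away and 1 marked member. Runs of this size are too short to tell their marked shares from that of all Vegt-only regions. Long runs of Vegt-only regions were thus found both far from and next to triple-bound regions. Runs were joined without regard to Otx1 or Foxh1 peaks, so such peaks may lie between the members of a run. The run on scaffold 94 had an Otx1 peak 371 bp and a Foxh1 peak 944 bp from a member.

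The regions were spread over all chromosomes. Chromosomes 1 to 9 held between 9.33 and 12.1 Vegt-only regions per Mb and chromosome 10 held 6.43 per Mb, with the length taken up to the last peak. Vegt-only regions made up between 64.7% (chromosome 3) and 72.2% (chromosome 9) of the Vegt-bound regions of a chromosome, and their median strength lay between 8.62-fold and 9.05-fold. Each chromosome was also cut into 10 equal stretches. Vegt-only regions had a larger share than all other regions in stretches 4 and 5 (14.1% against 12.2% in stretch 5) and in both end stretches (6.43% against 4.65% in stretch 1 and 5.82% against 4.68% in stretch 10). In stretch 6 both were at 12.6%. Vegt-only regions had the smaller share in stretches 2, 3, 7, 8 and 9 (11.2% against 13.2% in stretch 7). No chromosome stood apart in strength, and the unplaced scaffolds, with 923 regions, were at 8.65-fold.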

How the data were processed

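ChIP-seq peak lists for Vegt, Otx1, Foxh1 and H3K4me1 were used as deposited. Per the submitters' processing notes, Bowtie2 2.2.7 was used for the ChIP libraries; no source used here names the peak caller, the genome build or the read depth. Each of the 4 lists pools its samples, per the peak names. The Vegt, Otx1 and Foxh1 lists are labelled IDR optimal, and the H3K4me1 list is not. The deposited columns hold a score, a fold enrichment (a ratio to the control), a −log10 q-value and a summit position per peak, named from the narrowPeak layout and the values.

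Peaks were joined and measured with numpy 2.4.6 and pandas 2.3.3, and intervals came from statsmodels 0.14.6 and scipy 1.17.1. Distances run between region edges. The interval code was tested on simulated data against brute force. Deciles rank regions by fold enrichment, with ties by chromosome and start. Named regions were the 10 strongest, the 3 longest runs with ties, and the 3 nearest the rule's edge on each side. The 3 strongest marked regions were added after their values had been seen. Regions and measures were chosen with earlier results of these data known. RNA tables give no positions and were not used here. Sequences are not shown, since no genome of the files' build was used here.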

Additional observations from a re-analysis of the deposited data

How the results depend on the processing

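The region count was 14869 and stayed within 1.5 times under 5 of 7 alternatives. With the strongest 50% of each factor list it was 8546, the H3K4me1 difference between the top and bottom deciles was -1.75 percentage points, the median distance to a triple-bound region 606371 bp, the share with a Vegt-only neighbour 23.3% and the median strength 12.01-fold. With each factor list at 5151 peaks these were 3808 regions, -0.779 points, 1447930 bp, 12.1% and 15.3-fold; fewer peaks by construction give fewer and more distant regions. In both cases the interval of the H3K4me1 difference included 0, and the H3K4me1 share was 3.42% and 3.18%. Both cuts removed the Vegt peaks of lowest fold enrichment. They also dropped weaker Otx1 and Foxh1 peaks, so regions that had held such a peak could enter the Vegt-only class. These values therefore describe a partly different set of regions. Joining peaks up to 500 bp apart gave an H3K4me1 share of 3.06% and a neighbour share of 31.9%. The strongest 50% of the H3K4me1 list gave 2.23% and a difference of -2.62 points. A summit inside the H3K4me1 peak gave a share of 1.75%. A peak within 1 kb gave 5.51% and -6.66 points. Ranking by −log10 q or by score gave a difference of -0.940 points each; the cause was not tested. Flank windows of 10 kb and 50 kb and neighbours of any class gave neighbour shares of 20.3%, 50.8% and 65.9%. Leaving out regions within 1 kb of an Otx1 or Foxh1 peak, chosen after seeing the data, gave an H3K4me1 share of 2.88%, 205606 bp and a neighbour share of 32.6%. The H3K4me1 difference was negative under all 12 alternatives run, which reuse the same peaks. Ranking by score gave the same values as ranking by −log10 q, with an interval from -2.18 to 0.276 that included 0. No paired analysis was possible because each peak list pools its replicates, which also left no replicate to leave out.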
